A study of Caenorhabditis elegans with 36 samples.

Results

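The comparison is between first-stage larvae (L1) and eggs (Egg) of Caenorhabditis elegans in how strongly each mRNA was held with the microRNA-induced silencing complex (miRISC). It uses 16 of the 36 samples, which are the immunoprecipitate (IP) and the input of 4 L1 and 4 Egg lysates out of 18 lysates from 5 stages. All samples came from a transgenic strain with a single integrated copy of AIN-2 fused to GFP, and the IP was made with an anti-GFP antibody from whole-animal lysates. The L1 larvae had hatched overnight in buffer without food and were frozen after 4 hours on HB101 bacteria, and the Egg samples were purified eggs frozen directly. The input was total RNA of the same lysate. The value compared is the log2 ratio of IP to input within a lysate, matched by stage and replicate number, over the 11951 named genes that could be tested. No IP from untagged worms was used here, and so RNA recovered through AIN-2 cannot be told apart from RNA that sticks to the antibody or the beads. The stage was judged on the animals under a microscope, so a minority of each larval sample may have been at another stage.

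MicroRNAs guide an Argonaute protein to partly complementary sites, mostly in the 3' untranslated regions of mRNAs. The Argonaute recruits a GW182-family protein, which in the worm is AIN-1 or AIN-2, and this protein brings in factors that shorten the poly(A) tail and repress translation. In worm development the pathway is known above all for the heterochronic genes, in which microRNAs switch off early regulators so that larval fates follow in order.

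The ratios of different Egg lysates were less alike than those of different L1 lysates. In the IPs, 60.3% to 70.4% of the spots were above background (3 times the noise of the array channel) at L1, against 43.4% to 66.7% at Egg. In the inputs the share was 54.1% to 68.4% at L1 and 62.3% to 71.2% at Egg. The ratios of different L1 lysates correlated across genes with r from 0.623 to 0.756, and those of different Egg lysates with r from 0.338 to 0.611. Egg replicate 4 stood apart, with r from 0.338 to 0.457 against the other Egg lysates, which correlated with each other at 0.485 or more. These correlations run across genes, which are not independent of each other. The IP carried Cy5 in 2 of 4 L1 lysates and in 1 of 4 Egg lysates. Markers of the labelled stages separated the inputs in part. Of 11 embryo markers, pos-1, nos-2, pal-1, spn-4, cpg-1 and cpg-2 were lower in the L1 input than in the Egg input, by -1.82 (pos-1) to -5.14 (spn-4) on the log2 scale. Of these 11, pie-1, mex-5, end-1 and med-1 were not called, and end-3 was higher in the L1 input (0.98, limma adjusted p = 0.0187). The digestive enzyme genes lys-1, asp-1, asp-5, asp-6 and cpr-1 were higher in the L1 input, by 2.76 (asp-1) to 7.92 (cpr-1), while ges-1 was not called. The mean Egg input of cpr-1 was -6.38 and the mean L1 input of nos-2 was -7.2 (log2), both dim. The sizes of the cpr-1 and nos-2 differences are therefore uncertain. None of the 5 tested genes for yolk and sperm proteins (vit-2, vit-5, vit-6, msp-78 and msp-142) was called in the input by limma at adjusted p under 0.05. Samples are whole animals, so fewer cells of a type and less RNA per cell cannot be told apart.

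The IP to input ratio of 187 named genes was higher at L1 than at Egg and that of 127 was lower (limma, Benjamini-Hochberg adjusted p under 0.05 over all 15622 genes and unnamed probes tested). Among all features tested 240 (1.54%) were called higher and 153 (0.979%) lower, and 2176 had an unadjusted p under 0.05. Differences above 0 were found for 8984 of the 15622, and the counts for gene lists below are to be read beside these shares. Of the 314 named calls, 310 were changes of more than 2-fold and 136 of more than 4-fold. The 4 L1 ratios and the 4 Egg ratios did not overlap for 283 of the 314, where over the 11532 features with complete values all L1 lysates lay above all Egg lysates in 12% and below in 5.92%. All 16 samples were above background for 269 of the 314. Ratios at one stage were called far more often than the difference. At L1 the IP was above the input for 2089 features (13.4%) and below it for 1593 (10.2%), and at Egg above for 1684 (10.8%) and below for 1893 (12.1%). All IP and input columns were normalised to one distribution, so above or below the input is relative to the other features. A ratio of 0 does not mean equal recovery of the RNA, and these counts depend on the scaling. Both stages shared 1117 features above the input and 977 below it. The opposite pattern was rare, with 32 features called above the input at L1 and below it at Egg, and 19 the other way round.

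The called genes differed in the stage at which the IP stood apart from the input. Of the 187 with a higher ratio at L1, 132 were called above the input at L1, 80 were called below the input at Egg, and 26 were both. Of the 132, 24 were called above the input at both stages and further above it at L1. Of the 127 with a lower ratio at L1, 60 were called below the input at L1, 84 were called above the input at Egg, and 17 were both. In 84 genes every L1 lysate lay on one side of 0 and every Egg lysate on the other, with L1 above 0 in 54 of them and below in 30.

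**Figure D1:**
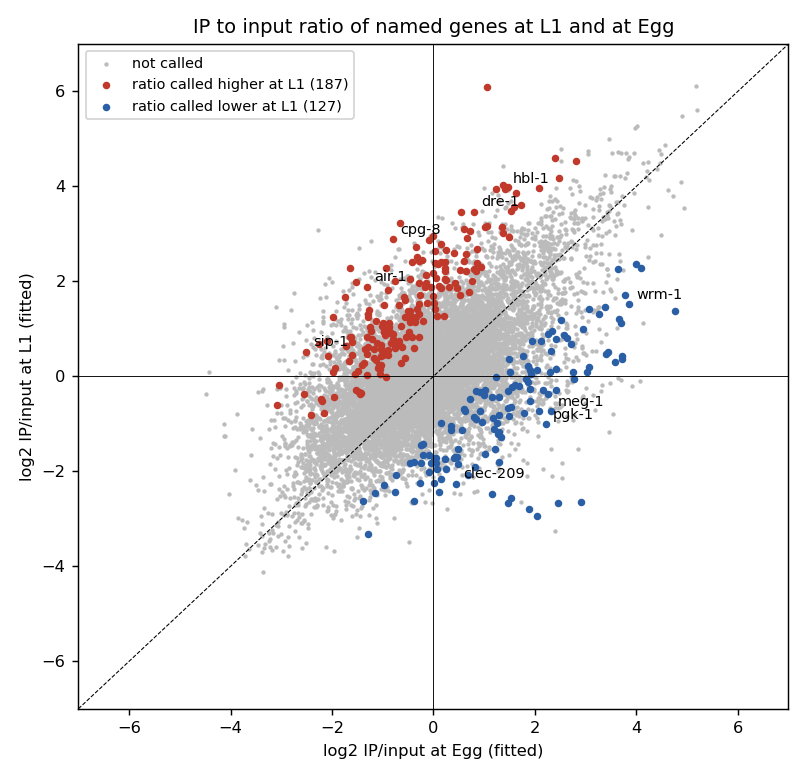
Fitted log2 IP to input ratio of each named gene at L1 (vertical axis) against Egg (horizontal axis), with the dashed line marking equal ratios. Red points are the 187 genes called higher at L1 and blue points the 127 called lower. Points scatter around the line, and the mean ratios of the stages correlated across all features tested with r of 0.597. The called genes lie off the line. Those called higher had medians of 1.27 at L1 and -0.56 at Egg, and those called lower of -0.73 at L1 and 1.47 at Egg.

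The scaling of the arrays bears on how many genes are called. The median ratio difference of all features was 0.17, and it was 0.09 without any normalisation, 0.39 when every column was centred on its median and 0.03 after loess in each lysate. With centred columns 43 features were called higher and 19 lower, and 42 of the 314 named genes kept their call. A call that held without any one lysate could still end with centred columns. All 314 kept their direction under each of these scalings. The input titles of 3 Egg lysates and 1 L1 lysate are spelled "tot" and those of 1 Egg lysate and 3 L1 lysates "Tot", which the labels do not describe as a batch. With the spelling as a block 152 features were called higher and 118 lower. Within "tot" 1 was called higher and 0 lower (limma, same fit with pooled spread), and within "Tot" 41 higher and 18 lower. Each of these within-spelling comparisons rests on 1 lysate of a stage, which is assumed to vary like the rest. Without Egg replicate 4 limma called 285 features higher and 158 lower. Without L1 replicate 5 it called 105 and 73, the fewest of any omission. Of the 314 named genes, 126 (75 higher and 51 lower) stayed called whichever of the 8 lysates was left out.

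A ratio can move because the IP moved, because the input moved, or both, and by arithmetic the difference of the ratio is the IP difference minus the input difference. For 90 of the 187 genes with a higher ratio at L1 (48.1%) the input was called lower at L1 and the IP was not called. For 26 (13.9%) the IP was called higher and the input was not called, for 23 (12.3%) both were called, and for 48 (25.7%) neither was. Among the 127 genes with a lower ratio at L1, the input was called higher and the IP not called for 44 (34.6%), the IP was called lower and the input not called for 37 (29.1%), both were called for 23 (18.1%) and neither for 23 (18.1%). Over all features the input was called higher at L1 for 11.4% and lower for 11.7%, and the IP for 4.12% and 2.77%, together 6.89%. The input and the IP were each fitted on their own samples, and missing one call while passing the other does not show that the fractions differ.

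**Figure D2:**
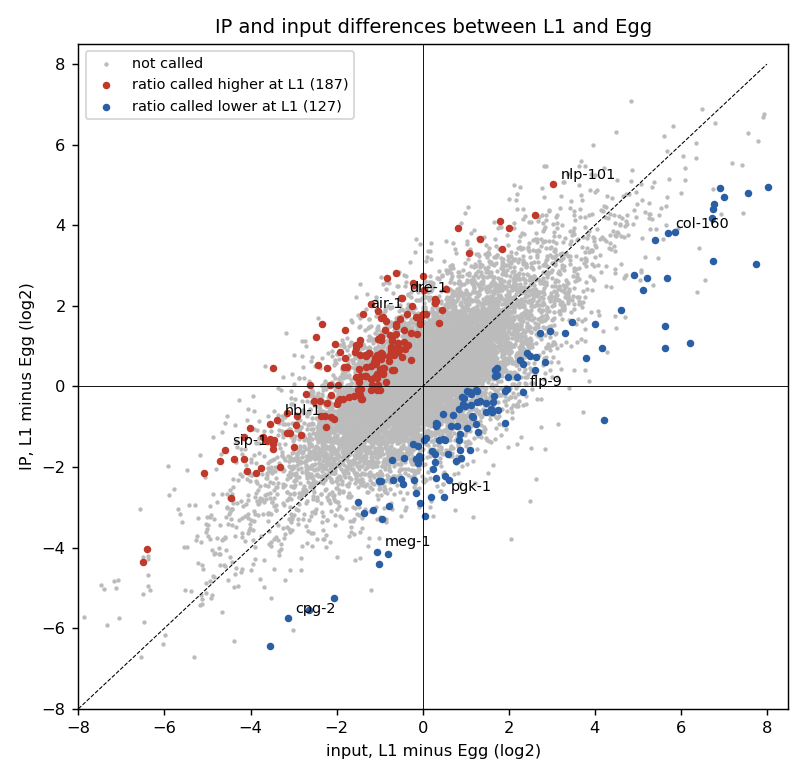
Difference between L1 and Egg in the IP (vertical axis, log2) against the difference in the input (horizontal axis, log2) for each named gene, with the dashed line marking equal differences and so an equal ratio. Genes called higher in ratio (red, 187) lie above the line and those called lower (blue, 127) below it. hbl-1 lies left of 0 because its input was lower at L1, dre-1 lies above 0 because its IP was higher, and cpg-2 was lower in both.

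Among the heterochronic genes, hbl-1 and dre-1 had higher ratios at L1. hbl-1 is a hunchback-like zinc finger transcription factor that sets early larval fates and is a target of the let-7 family of microRNAs. Its log2 ratios were 3.50, 3.98, 4.02 and 4.32 in the L1 lysates, against 1.57, 1.76, 0.62 and 1.53 in the Egg lysates. All L1 values lay above all Egg values, and every lysate of both stages lay above 0. The ratio was higher at L1 by 2.54 ± 0.358 (SE; 5.81-fold, limma adjusted p = 0.000577). The movement was in the input. The hbl-1 input level averaged -0.63 ± 0.32 at L1 and 2.81 ± 0.72 at Egg (log2, SD, n = 4 each), and its IP level averaged 3.33 ± 0.28 at L1 and 4.18 ± 0.48 at Egg. The input difference of -3.38 was called (limma adjusted p = 1.08e-06), and the IP difference of -0.84 was not (limma adjusted p = 0.289).

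dre-1, an F-box protein of a ubiquitin ligase that acts in the same timing pathway, moved in the other fraction. Its ratios were 3.08, 3.73, 3.52 and 3.55 in the L1 lysates, against 0.87, 0.62, 1.31 and 0.56 in the Egg lysates. The groups did not overlap, and the ratio was higher at L1 by 2.68 ± 0.347 (SE; 6.39-fold, limma adjusted p = 0.000366). The dre-1 IP averaged 5.01 ± 0.69 at L1 and 2.93 ± 0.25 at Egg (log2, SD, n = 4 each), a difference of 2.20 (limma adjusted p = 0.000946). Its input averaged 1.54 ± 0.49 at L1 and 2.09 ± 0.28 at Egg, a difference of -0.48 that was not called (limma adjusted p = 0.248). The ratio stayed high at the later stages, at 2.95 in L2, 3.21 in L3 and 2.30 in L4. The calls of hbl-1 and dre-1 held without any one of the 8 lysates, but that of hbl-1 ended with centred columns (2.74, limma adjusted p = 0.057).

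The other 8 tested members of the heterochronic list were not called. They were the transcriptional regulators lin-29 (-0.47), blmp-1 (-0.03), nhr-25 (-0.06), mab-10 (0.42) and sea-2 (-0.25), the Period-like gene lin-42 (0.15), and lin-46 (1.39) and lin-66 (-0.08). All of them changed sign under some alternative setting except lin-46. The second probe of blmp-1, above background in 2 of 16 samples, gave -3.28, and was not used. The ratios of nhr-25 were high at both stages, at 2.59, 1.54, 2.16 and 1.45 in the L1 lysates and 2.39, 2.49, 1.85 and 1.53 in the Egg lysates. Those groups overlapped. Over the list of 10 genes 2 were called higher and 0 lower by limma, with a median difference of 0.06, beside 0.17 over all features. Not analysed here were ain-2, daf-12 and the genes lin-41, lin-28 and lin-14.

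Of 11 tested genes known as targets of microRNAs, hbl-1 and die-1 were called higher at L1 and none lower, and the median difference was 0.11. die-1 is a zinc finger transcription factor of embryonic morphogenesis. Its ratios were 3.15, 1.99, 1.91 and 2.55 in the L1 lysates, against -0.01, 0.91, -0.48 and -0.27 in the Egg lysates. The L1 and Egg values did not overlap, and the difference was 2.18 ± 0.391 (SE; 4.52-fold, limma adjusted p = 0.00359). As with hbl-1, the die-1 input was lower at L1 (-2.53, limma adjusted p = 5.87e-06), while its IP was not called (-0.35). The die-1 call held without any one lysate and ended with centred columns (2.62, limma adjusted p = 0.0633).

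Of the other known targets, egl-1, mef-2 and dbl-1 were called above the input at both stages. egl-1, the BH3-only activator of programmed cell death and a target of the mir-35 family, had ratios of 1.94, 2.39, 2.21 and 1.68 in the L1 lysates, against 4.46, 3.88, 1.76 and 4.62 in the Egg lysates. Egg replicate 4 lay within the L1 range, and the difference of -1.56 was not called (limma adjusted p = 0.123). Leaving out Egg replicate 4 moved the egl-1 difference to -2.19, which was called lower. It was not called without any other single lysate (-1.64 to -1.28). The egl-1 IP alone was lower at L1 (-2.46, limma adjusted p = 0.0464). The muscle transcription factor gene mef-2 had ratios of 1.49, 1.77, 1.14 and 1.73 at L1 and 2.54, 2.56, 2.45 and 2.22 at Egg. The mef-2 groups did not overlap, but the difference of -0.95 was not called (limma adjusted p = 0.136). The remaining differences were 1.23 for the acetylcholine receptor gene unc-29, 0.66 for the pharyngeal selector gene pha-4, 0.50 for the BMP ligand gene dbl-1, 0.11 for the Ras gene let-60, -0.21 for vav-1, -0.33 for the F-box gene lin-23 and -0.34 for the homeobox gene cog-1, none of them called. cog-1 was above background in 7 of 16 samples.

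**Figure D3:**
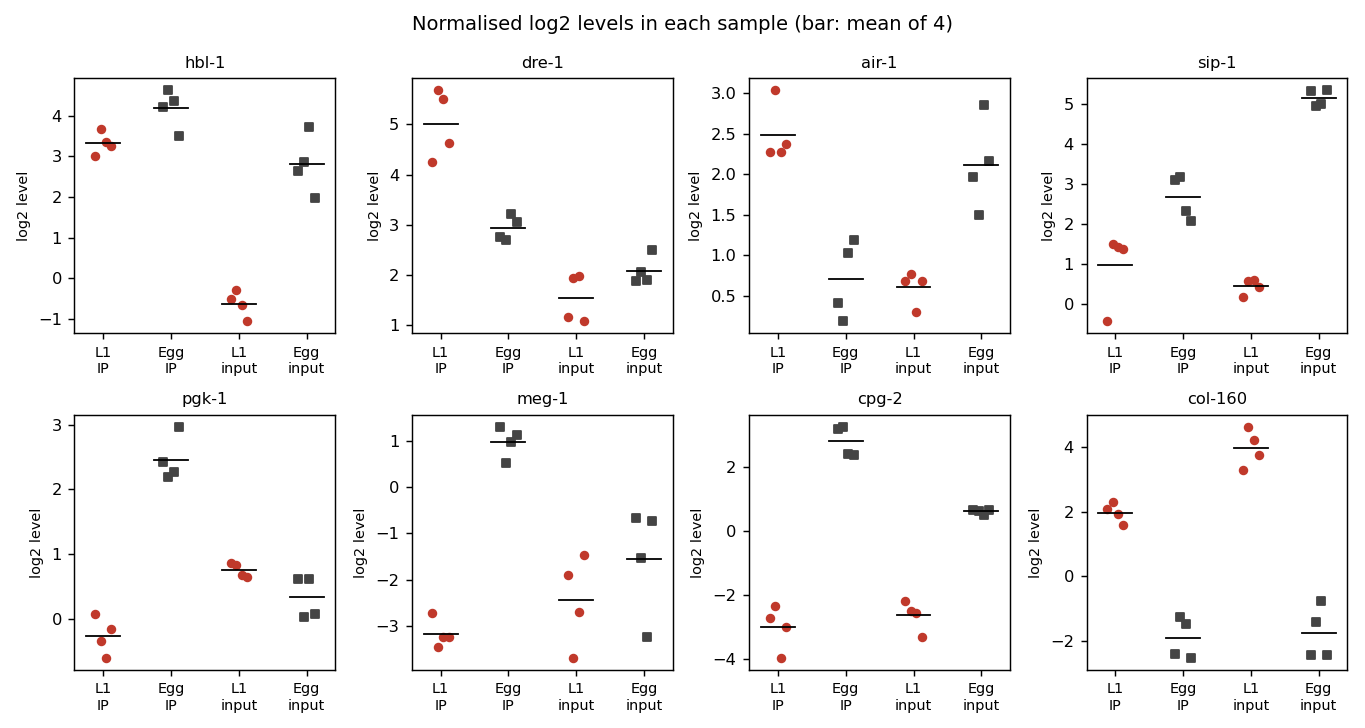
Normalised log2 levels in each of the 4 L1 (red circles) and 4 Egg (dark squares) samples of IP and input for 8 genes, with the bar at the mean. One fraction was called in hbl-1 (input lower at L1), dre-1 (IP higher), pgk-1 and meg-1 (IP lower). Both were called in air-1 (IP higher and input lower), in sip-1 and cpg-2 (both lower) and in col-160 (both higher).

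The mRNAs of the microRNA machinery had higher ratios at L1 by median. Of 20 tested, 2 were called higher and 0 lower by limma, and 16 had differences above 0, with a median of 0.83. Over all 15622 features 8984 differences were above 0. ain-1 encodes the paralogue of the tagged protein. Its ratios were 1.18, 2.06, 1.96 and 0.97 in the L1 lysates, against 0.05, -0.16, 0.47 and 0.21 in the Egg lysates. The groups did not overlap, and the ain-1 ratio rose by 1.52 ± 0.255 (SE; 2.88-fold, limma adjusted p = 0.00191). Neither its IP (0.90) nor its input (-0.63) was called on its own. pab-1, the cytoplasmic poly(A)-binding protein, had ratios of 1.14, -0.24, 0.49 and 2.23 at L1 and -1.56, -1.06, 0.10 and -1.87 at Egg. These overlapped, and the pab-1 call (1.77, limma adjusted p = 0.0349) ended without Egg replicate 1, 2 or 5 or without L1 replicate 2, 10 or 11 (1.44 to 1.84, limma adjusted p from 0.0585 to 0.201). The pab-1 IP was called higher on its own (2.06, limma adjusted p = 0.001). The Argonaute genes alg-1 (1.71) and alg-2 (0.57), Dicer (dcr-1, 0.92), Drosha (drsh-1, 0.95), the translation repressor ifet-1 (1.43) and the decapping factor edc-3 (1.19) were not called. The drsh-1 ratio was high at both stages, at 2.80 at L1 and 1.85 at Egg. The list median stayed above 0 under every alternative, from 0.56 to 1.24, and was 1.24 with centred columns, where that of all features was 0.39. The ain-1 call ended with centred columns (1.95, limma adjusted p = 0.166).

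Outside the microRNA pathway, prg-1, the Piwi Argonaute that binds piRNAs in the germ line, had a lower ratio at L1. Its ratios were -0.85, -0.92, -1.95 and -1.11 in the L1 lysates, against 0.67, 1.43, 1.56 and 1.05 in the Egg lysates. Every L1 lysate lay below 0 and every Egg lysate above it, a difference of -2.49 ± 0.377 (SE; limma adjusted p = 0.000904). The prg-1 IP was lower at L1 (-2.64, limma adjusted p = 0.00216), and its input was not called (-0.15). The prg-1 values are those of 1 probe, the one measured in the most lysates. Of the 3 prg-1 probes, the 2 above background in all 16 samples differed by -1.74 and -2.39, and the third, above background in 6, by -2.86. The prg-1 call held without any one lysate, and ended when the mean was taken over every probe with a value (-2.02, limma adjusted p = 0.25) and with centred columns (-1.99, limma adjusted p = 0.166). Of the 15 tested genes in the list of other Argonautes, prg-1 was the only one called, and the median was 0.28.

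Genes of the cell cycle and DNA replication had the lower input at L1, and the ratios of several rose. Of 61 tested, the input was called lower at L1 for 40 and higher for 0 by limma, and the IP lower for 12. The ratio was called higher for 6 and lower for 1, and 53 of the 61 differences were above 0, with a median of 0.82. Over all features tested 8984 of 15622 differences were above 0, 1.54% were called higher and 0.979% lower. The median ratio was 0.36 at L1 and -0.63 at Egg. air-1, the Aurora A kinase of centrosomes and spindles, had ratios of 1.60, 2.27, 1.98 and 1.68 in the L1 lysates, against -1.55, -1.32, -1.83 and -0.97 in the Egg lysates. The groups lay on opposite sides of 0, and the difference was 3.19 ± 0.366 (SE; 9.14-fold, limma adjusted p = 0.000138). For air-1 the IP was higher at L1 (1.81, limma adjusted p = 0.0102) and the input lower (-1.38, limma adjusted p = 0.00424).

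A further pair of mitotic regulators changed through the input. cyb-1, a mitotic cyclin B, had ratios of 0.15, 0.51, 0.36 and 0.31 at L1 and -1.85, -1.21, -1.49 and -2.12 at Egg, with no overlap (1.99 ± 0.305, limma adjusted p = 0.001). Its IP was lower at L1 by -1.15 and its input by -3.15. cyk-4, which is needed for cytokinesis, had ratios of 2.20, 0.40, 0.02 and 0.72 at L1 and -2.22, -0.92, -1.48 and -1.5 at Egg (2.14 ± 0.340, limma adjusted p = 0.0014), with an input difference of -3.46. The ribonucleotide reductase gene rnr-2 was at 1.70 (limma adjusted p = 0.0485), a call that ended without any one of the 8 lysates (1.46 to 1.87). The member called lower, the cyclin D gene cyd-1, was at -1.33 (limma adjusted p = 0.0337) and is named here after its value was seen. Outside this list, the DNA polymerase delta gene pold-1 was called lower (-1.79, limma adjusted p = 0.00932). The kinetochore gene hcp-2, also outside it, was called higher (2.96, limma adjusted p = 0.000271). The calls of air-1, cyb-1 and cyk-4 held without any one lysate. With centred columns air-1 stayed called (3.62), and cyb-1 (2.46, limma adjusted p = 0.0767) and cyk-4 (2.50, limma adjusted p = 0.0724) did not.

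The eggshell genes moved in both directions. cpg-8, for a chondroitin proteoglycan, had ratios of 2.99, 2.82, 2.87 and 2.90 in the L1 lysates, against -1.51, -0.88, -0.08 and -0.93 in the Egg lysates. All L1 lysates lay above 0 and all Egg lysates below it (3.70 ± 0.384, 13-fold, limma adjusted p = 5.63e-05). The cpg-8 input was lower at L1 (-2.48, limma adjusted p = 0.000111), and the IP was not called (1.22). cpg-2, for a chondroitin proteoglycan of the eggshell, went the other way, with ratios of -0.53, 0.13, -1.41 and 0.31 at L1 and 2.52, 2.64, 1.93 and 1.73 at Egg (-2.63 ± 0.385, limma adjusted p = 0.000692). The L1 and Egg values did not overlap. Both cpg-2 fractions were lower at L1, the IP by -5.75 and the input by -3.13. With centred columns the cpg-2 call ended (-2.27, limma adjusted p = 0.074). gna-2, for an enzyme that makes a sugar precursor of chitin, rose by 2.28 (limma adjusted p = 0.0155), a call that ended without L1 replicate 2, 5 or 10 (2.16 to 2.38), and its L1 input was above background in 2 of 4 samples. Of the 12 tested, 2 were called higher and 1 lower, with a median of 0.67 that changed sign under some alternatives (-0.21 to 1.32).

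Embryonic specification genes had 3 of 30 called higher and 0 lower by limma, with a median of 0.77. Beside die-1 these were ref-1, a bHLH factor downstream of Notch (1.60, limma adjusted p = 0.013), and unc-120, a muscle factor related to SRF (1.41, limma adjusted p = 0.0363). ref-1 had ratios of 0.97, 2.13, 1.59 and 0.56 at L1, just above the -0.77, -0.43, 0.20 and 0.53 at Egg, and its call ended without Egg replicate 1 or L1 replicate 5 or 10 (1.34 to 1.62). unc-120 lost its call without each of 7 of the 8 lysates (1.29 to 1.52), the exception being Egg replicate 5. Among 38 germ line genes 3 were called higher and 1 lower, with a median of 0.49. gld-2, a cytoplasmic poly(A) polymerase, had ratios of 1.85, 1.67, 1.67 and 1.71 at L1 and 0.61, 0.67, 0.63 and -0.03 at Egg, with no overlap (1.21 ± 0.245, limma adjusted p = 0.00815). With centred columns gld-2 was not called (1.51, limma adjusted p = 0.275). rnp-8, the RNA-binding partner of gld-2, was at 1.46 (limma adjusted p = 0.0393) and lost its call without any lysate but Egg replicate 4 (1.08 to 1.62). puf-5, a PUF-family RNA-binding protein of oocytes, was at 2.44 (limma adjusted p = 0.0413), and its call held only without L1 replicate 11 (otherwise 2.18 to 2.62).

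The germ line gene that was lower at L1 was meg-1, which is needed for germ cell development and encodes a protein of P granules. Its ratios were -0.83, 0.22, -0.54 and -1.77 in the L1 lysates, against 1.97, 2.04, 4.21 and 1.86 in the Egg lysates. The groups did not overlap, and Egg replicate 4 lay well above the other Egg lysates. The difference was -3.04 ± 0.607 (SE; 8.25-fold, limma adjusted p = 0.0072), and it stayed called without any one lysate (-3.32 to -2.57). The meg-1 call ended with centred columns (-2.53, limma adjusted p = 0.0911). The meg-1 IP averaged -3.16 ± 0.32 at L1 and 0.98 ± 0.34 at Egg (log2, SD, n = 4 each; -4.10, limma adjusted p = 0.000411). Its input averaged -2.43 ± 0.98 at L1 and -1.54 ± 1.19 at Egg and was not called.

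The largest rises by the naming rule (called, above background in all 16 samples, groups not overlapping) were R12E2.7 (3.94 ± 0.657, limma adjusted p = 0.00185), dbd-3 (3.88 ± 0.571), cpg-8, W01C8.5 (3.51 ± 0.570) and air-1. R12E2.7 had ratios of 2.29, 2.09, 2.25 and 2.51 at L1, against -2.15, -1.51, -2.33 and -1.35 at Egg. For R12E2.7 and dbd-3 the input was lower at L1 (-3.49 and -2.34), and for W01C8.5 neither fraction was called. sip-1, a small heat shock protein of oocytes and embryos, had ratios of -0.62, 0.93, 0.83 and 0.94 at L1, against -2.22, -1.77, -2.68 and -3.28 at Egg (3.02 ± 0.448, limma adjusted p = 0.000733). Its input averaged 0.45 ± 0.19 at L1 and 5.16 ± 0.21 at Egg (log2, SD, n = 4 each), and its IP was lower at L1 by less (-1.58). The kinetochore gene hcp-2 had ratios of 2.93, 2.81, 2.72 and 3.33 at L1 and -0.73, -0.27, 0.45 and -0.13 at Egg (2.96 ± 0.368, limma adjusted p = 0.000271). The calls of R12E2.7, dbd-3, cpg-8, W01C8.5, air-1, sip-1 and hcp-2 held without any one of the 8 lysates and with centred columns.

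The calls of the next 5 rises ended when some lysates were left out, while their differences stayed above 4-fold. F26F4.6 (2.92) lost its call without Egg replicate 1 or 4 or L1 replicate 5, 10 or 11 (2.39 to 2.90), and its Egg ratios ran from -1.66 to 2.39. skr-7 (2.86), for a Skp1-related protein of ubiquitin ligases, lost it without Egg replicate 1 or 2 or L1 replicate 2, 5 or 10 (2.60 to 3.01). The family of skr-7 has near-identical members, and cross-hybridisation between them was not tested. pqn-39 (2.83), for a protein rich in glutamine and asparagine, stayed called only without Egg replicate 4 (otherwise 2.57 to 2.97). T23G7.2 (2.76) lost its call without Egg replicate 2 (2.21, limma adjusted p = 0.0754). F55D12.2 (2.71) lost it without Egg replicate 1 or 2 or L1 replicate 2, 5 or 10 (2.43 to 2.64).

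**Figure D4:**
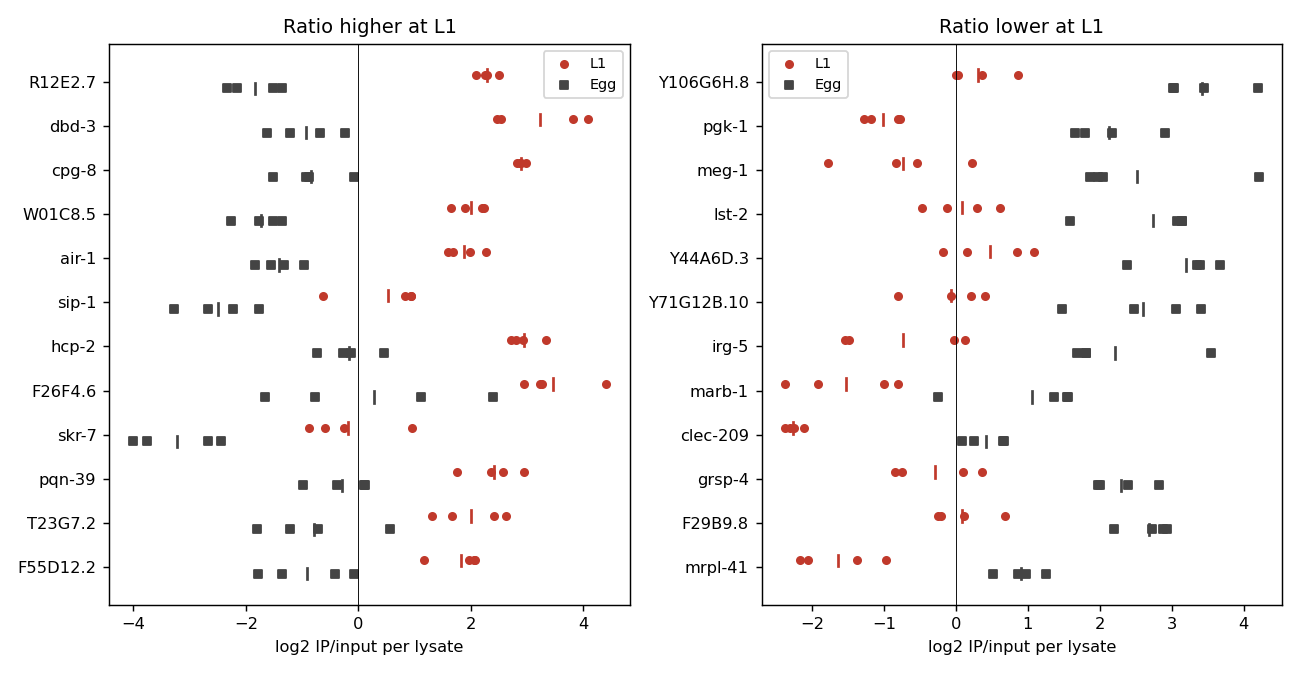
Log2 IP to input ratio of each lysate for the 12 genes with the largest rise (left) and the 12 with the largest fall (right) by the naming rule. Red circles are the 4 L1 lysates, dark squares the 4 Egg lysates, and bars are means of the points. In each gene the L1 and the Egg points do not overlap, which the rule required, and for F26F4.6 the Egg lysates spread from -1.66 to 2.39.

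The rises in which the IP was higher and the input was not called included myo-3, the myosin heavy chain of body wall muscle. Its ratios were 2.03, 2.67, 2.14 and 2.68 in the L1 lysates, against 0.15, 0.39, -1.63 and 0.79 in the Egg lysates. The L1 and Egg values did not overlap (2.34 ± 0.438, limma adjusted p = 0.00475), and the ratio was similar at the later stages, at 2.31 in L2, 2.37 in L3 and 2.60 in L4. The myo-3 IP averaged 4.42 ± 0.57 at L1 and 2.10 ± 0.48 at Egg, and its input 2.04 ± 0.61 at L1 and 2.17 ± 0.59 at Egg (log2, SD, n = 4 each). R03H10.2 was another of this kind (2.70 ± 0.507, limma adjusted p = 0.00486; IP 2.21). Both fractions were called, in opposite directions, for ZK177.3 (2.64 ± 0.352; IP 1.72, input -0.92) and Y43F8C.5 (2.59 ± 0.349; IP 1.15, input -1.45). These 4 calls held without any one lysate. With centred columns myo-3 (2.55, limma adjusted p = 0.1) and Y43F8C.5 (2.42, limma adjusted p = 0.0995) were not called. In Egg replicate 4 the ratio of myo-3 was the lowest, and without that lysate the difference was 1.88.

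Among the falls, pgk-1, the glycolytic enzyme phosphoglycerate kinase, had ratios of -0.78, -1.18, -1.28 and -0.80 in the L1 lysates, against 1.80, 2.17, 1.65 and 2.90 in the Egg lysates. The groups lay on opposite sides of 0, and the difference was -3.23 ± 0.332 (SE; 9.36-fold, limma adjusted p = 5.63e-05). The pgk-1 input was not called, at 0.75 ± 0.11 at L1 and 0.33 ± 0.33 at Egg (log2, SD, n = 4 each; 0.49, limma adjusted p = 0.17). Its IP was -0.26 ± 0.29 at L1 and 2.46 ± 0.35 at Egg (-2.74, limma adjusted p = 2.57e-05). The pgk-1 ratio stayed below 0 at L2 (-1.19), L3 (-1.44) and L4 (-1.61). Y106G6H.8 was lower by -3.28 ± 0.532 (limma adjusted p = 0.0016), also through its IP (-3.23), with an input difference of 0.05. wrm-1, a beta-catenin of Wnt signalling in embryonic cell fate decisions, had ratios of 2.25, 1.53, 1.54 and 0.76 at L1 and 3.37, 4.36, 3.59 and 3.76 at Egg (-2.34 ± 0.382, limma adjusted p = 0.0016). It was above 0 in all 8 lysates, and its IP was lower at L1 (-3.29, limma adjusted p = 4.25e-06) while its input was not called (-0.95). These 3 calls held without any one lysate, and none held with centred columns (pgk-1 -2.59, limma adjusted p = 0.0724).

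Further falls by the naming rule ran through either fraction. lst-2, a negative regulator of EGF receptor signalling (-2.94 ± 0.638), Y44A6D.3 (-2.93), Y71G12B.10 (-2.84), the infection response gene irg-5 (-2.80), marb-1 (-2.74), the C-type lectin gene clec-209 (-2.71 ± 0.388, limma adjusted p = 0.000639), grsp-4 (-2.69), F29B9.8 (-2.66) and the mitochondrial ribosomal protein gene mrpl-41 (-2.66) made up the list. clec-209 had ratios of -2.11, -2.37, -2.25 and -2.30 at L1 and 0.67, 0.25, 0.08 and 0.65 at Egg, while its input was higher at L1 by 5.11 and its IP by 2.41. Only the calls of clec-209 and F29B9.8 in this group held without any one lysate. No call in this group held with centred columns (clec-209 -2.34, limma adjusted p = 0.0914, and F29B9.8 -2.04, limma adjusted p = 0.171). lst-2 and Y71G12B.10 lost theirs without L1 replicate 10 (-2.95 and -2.67), Y44A6D.3 without L1 replicate 5 or 10 (-2.98 and -2.84), and irg-5 without Egg replicate 2 (-2.80). marb-1 lost its call without Egg replicate 1 or 2 or L1 replicate 5 or 10, mrpl-41 without any lysate but Egg replicate 4 or L1 replicate 11, and grsp-4 without any one of the 8.

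Many genes of digestion were higher in the L1 input, and few of their ratios were called. Of 60 tested genes for proteases, lysozymes, saposins and phosphatases, the input was called higher at L1 for 35 and the IP for 23, whereas the ratio was called higher for 0 and lower for 3 by limma. Their median ratio difference was -0.56, and 16 of the 60 lay above 0, beside 8984 of 15622 over all features. asp-5 and asp-6, intestinal aspartic proteases, show the common pattern, with inputs higher by 3.25 and 3.31, IPs higher by 2.53 and 2.49, and ratio differences of -0.72 and -0.82 that were not called. lys-1, a lysozyme, was higher in both fractions by similar amounts (IP 3.36, input 3.05). The 3 called lower were the cathepsin B gene cpr-5 (-1.98, limma adjusted p = 0.0219), the invertebrate lysozyme gene ilys-5 and the saposin-like gene spp-17. The Egg values of these were dim. For ilys-5 the Egg IP was above background in 1 of 4 samples and the Egg input in 2 of 4, and no fold is given. For spp-17 no Egg input was above background, so its ratio at Egg is not measured and no fold is given. The spp-17 call ended without Egg replicate 5 or L1 replicate 5 or 10. cpr-5 lost its call without Egg replicate 4 or 5 or L1 replicate 5 or 10 (-1.94 to -1.47), and ilys-5 kept it without any one lysate.

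Of 121 tested cuticle collagens 0 were called higher and 2 lower by limma, with a median of -0.46. Of these differences 38 lay above 0, beside 8984 of 15622 over all features. The input was called higher at L1 for 33 and lower for 17. col-160 had ratios of -1.22, -2.34, -2.31 and -2.16 in the L1 lysates, against 0.02, 0.13, -0.69 and -0.10 in the Egg lysates. The groups did not overlap (-1.91 ± 0.324, limma adjusted p = 0.00211), and the col-160 call ended with centred columns (-1.29, limma adjusted p = 0.377). Both fractions of col-160 were far higher at L1, the input by 5.71 and the IP by 3.80. col-142 was at -1.57 (limma adjusted p = 0.0298) and lost its call without Egg replicate 1 or 2 or any one of the L1 lysates (-1.70 to -1.31). Collagen genes share long repeats, and cross-hybridisation between them was not tested. Of 30 molting and apical matrix genes, sym-1, an extracellular leucine-rich repeat protein, was called higher (1.61, limma adjusted p = 0.0061), and the hedgehog-related gene qua-1 (-1.38) and the molting gene mlt-10 (-1.34) lower. qua-1 lost its call without Egg replicate 1 or L1 replicate 5 or 10 (-1.36 to -1.17) and mlt-10 without L1 replicate 5 (-1.22). Among 67 hedgehog-related and patched-related genes 1 was called higher (ptr-19, 1.92, groups overlapping) and 1 lower (qua-1). Centring the columns ended the calls of sym-1 (2.02, limma adjusted p = 0.166) and ptr-19 (2.44, limma adjusted p = 0.0967).

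Neuropeptide genes had a median of -0.38 over 99 tested, with 35 above 0, beside 8984 of 15622 over all features. Their input was called higher at L1 for 42 and the IP for 14. flp-9, an FMRFamide-like peptide gene, had ratios of -1.05, -1.31, -1.25 and -1.07 in the L1 lysates, against 1.36, 1.08, 1.26 and 1.5 in the Egg lysates. The groups lay on opposite sides of 0 with little spread (-2.46 ± 0.332, limma adjusted p = 0.000445), and the flp-9 call held without any one lysate. That call ended with centred columns (-1.78, limma adjusted p = 0.179). The flp-9 input was higher at L1 (2.32, limma adjusted p = 0.000311) and its IP was not (-0.13). nlp-101 and nlp-31 were called higher (1.98 and 1.35), and each lost its call without each of 6 of the 8 lysates, the exceptions being Egg replicates 4 and 5. nlp-101 was above background in 3 of 4 Egg samples of each fraction. Of 73 neuropeptide receptors frpr-15 was called higher. Its ratios were 4.16, 3.98, 3.89 and 3.45 at L1 and 2.13, 1.69, 1.08 and 1.98 at Egg (2.25 ± 0.477, limma adjusted p = 0.0117), and its IP was higher at L1 by 3.31. Centring the columns ended the frpr-15 call (2.83, limma adjusted p = 0.0576). Of 66 ligand-gated channels glc-3 was called (2.82), a call that ended without any one of the 8 lysates (2.34 to 3.17) and rests on Egg values above background in 2 of 4 IPs. Of 592 chemoreceptor genes 1 was called higher and 3 lower, with a median of -0.10. They were srj-21 (1.71), srdf-3 (-1.77), srh-211 (-1.77) and sru-11 (-2.02). The calls of srdf-3 and srh-211 held without any one lysate, srj-21 lost its call without L1 replicate 5 or 10 (1.44 and 1.51), and sru-11 stayed called only without Egg replicate 4. With centred columns srdf-3 (-1.09, limma adjusted p = 0.468) and srh-211 (-1.27, limma adjusted p = 0.384) were not called. No member of the lists of 33 neuronal and synaptic genes (median 0.33), 157 nuclear hormone receptors (0.24), 45 ceh homeobox genes (0.32) and 23 bHLH and T-box genes (0.35) was called by limma at adjusted p under 0.05. At an unadjusted p under 0.05 there were 7 neuronal and synaptic genes, 9 nuclear hormone receptors, 3 ceh genes and 3 bHLH and T-box genes.

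The ratios of 2 core subunits of the proteasome were lower at L1, and so were their IPs. pbs-6 and pbs-7 are beta subunits of the 20S particle that degrades proteins. pbs-6 had ratios of -0.82, -1.20, -1.06 and -1.34 in the L1 lysates, against 0.80, 1.15, 0.74 and 1.67 in the Egg lysates (-2.29 ± 0.332, limma adjusted p = 0.000692). pbs-7 had ratios of -1.55, -1.93, -1.67 and -1.65 at L1 and -0.08, 0.23, 1.12 and 0.09 at Egg (-2.12 ± 0.293, limma adjusted p = 0.000533). Neither pair of groups overlapped. Their IPs were lower at L1 by -2.05 (pbs-6) and -2.32 (pbs-7), and the inputs were not called (0.24 and -0.20). Both calls held without any one lysate and ended with centred columns (-1.70 and -1.64). The other 30 of 32 tested subunits were not called, and the list median was -0.34, or 0.06 with centred columns.

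By list median, the abundant mRNAs of protein synthesis and respiration lay below the input at both stages, though single genes did not. Among the ribosomal protein and oxidative phosphorylation genes mrpl-41 alone was called, beside 2.52% of all features. Of 71 tested cytosolic ribosomal protein genes 0 were called in either direction by limma, with 5 at an unadjusted p under 0.05, and the median ratio was -3.09 at L1 and -2.85 at Egg. Their inputs were called higher at L1 for 59 and their IPs for 8. The sign of their median difference depends on the scaling, at -0.19 as reported and 0.21 with centred columns, over a range from -0.53 to 0.92. Of 61 oxidative phosphorylation genes 0 were called by limma and 3 had an unadjusted p under 0.05 (median 0.29), and of 59 mitochondrial ribosomal protein genes mrpl-41 alone was called (median 0.15). Among 31 translation factors 2 were called higher and 2 lower. iff-1, a germ line eIF5A, had ratios of 1.11, 0.13, 0.27 and 0.20 at L1 and -2.35, -1.27, -2.70 and -2.61 at Egg (2.50 ± 0.496, limma adjusted p = 0.007), with an input lower by -2.70, and its call held without any one lysate. ifg-1, an eIF4G, was at 1.35 (limma adjusted p = 0.0492) and stayed called only without Egg replicate 5, moving to 0.99 without Egg replicate 4. eif-3.E (-1.69) and eif-3.B (-1.20) of the initiation factor eIF3 were lower. eif-3.B lost its call without Egg replicate 2 (-1.07), and eif-3.E without Egg replicate 2 or L1 replicate 5, 10 or 11 (-1.72 to -1.53). Of 26 tRNA synthetase genes fars-3, for phenylalanine, was called lower (-2.17 ± 0.317, limma adjusted p = 0.000692), with ratios of -1.5, -1.66, -1.76 and -1.84 at L1 and 0.23, 0.13, 0.88 and 0.54 at Egg. The fars-3 call ended with centred columns (-1.6, limma adjusted p = 0.254).

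Of 39 genes of the endoplasmic reticulum and secretion 4 were called higher and 0 lower by limma, with a median of 0.32. Among the 39, 31 lay above 0, beside 8984 of 15622 over all features. sec-11, the catalytic subunit of signal peptidase, had ratios of 1.34, 2.01, 1.70 and 1.36 in the L1 lysates, against -0.71, -0.34, -0.99 and -0.41 in the Egg lysates. The groups lay on opposite sides of 0 (2.16 ± 0.357, limma adjusted p = 0.00182), and the sec-11 IP was higher at L1 (1.81). The sec-11 call ended with centred columns (2.62, limma adjusted p = 0.0767). The chaperone calnexin (cnx-1, 1.59), the translocation gene sec-62 (1.21) and the signal peptidase subunit spcs-2 (0.96) were close to the threshold. cnx-1 lost its call without any one of the 8 lysates, sec-62 without any but Egg replicate 5, and spcs-2 without any but Egg replicate 4 or L1 replicate 2. Among 48 heat shock and chaperonin genes dnj-8 was called higher (1.66) and the co-chaperone sti-1 lower (-1.65 ± 0.308, limma adjusted p = 0.00464). dnj-8 lost its call without Egg replicate 2 or L1 replicate 5 or 10 (1.60 to 1.70). Among 125 cytochrome P450, UDP-glycosyltransferase and glutathione S-transferase genes gst-7 was called higher. Its ratios were -0.57, -0.11, -0.80 and 0.02 at L1 and -2.80, -2.34, -2.92 and -2.47 at Egg (2.19 ± 0.350, limma adjusted p = 0.00141). Centring the columns ended the calls of gst-7 (2.63, limma adjusted p = 0.0676) and sti-1 (-1.06, limma adjusted p = 0.51).

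Histone genes had a median of 0.44 over 33 tested, with the input called lower at L1 for 18. The H2A variant gene htz-1 was called higher (1.48, limma adjusted p = 0.0229) and the linker histone-like gene hil-6 lower (-1.31, limma adjusted p = 0.0386). htz-1 lost its call without Egg replicate 5 or L1 replicate 2, 5 or 10 (1.22 to 1.58). hil-6 lost it without each of 6 of the 8 lysates (-1.43 to -1.02), and its second probe, above background in 14 of 16 samples, differed by 1.55 in the other direction. Of 37 muscle genes, myo-3 was called higher, and act-2, an actin (-1.36, limma adjusted p = 0.00832), and tnt-2, a troponin T (-1.27, limma adjusted p = 0.00808), lower. The actin genes are near-identical, and cross-hybridisation between them was not tested. tnt-2 lost its call without L1 replicate 5 (-1.18), and act-2 lost its call with centred columns (-0.96, limma adjusted p = 0.534).

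In the signalling lists single genes were called. wrm-1 was the only one of 17 Wnt genes, ref-1 the only one of 14 Notch genes, the FGF gene let-756 (1.53, limma adjusted p = 0.00572) the only one of 16 Ras and MAP kinase genes, and the Ski-like gene daf-5 (-1.38, limma adjusted p = 0.0268) the only one of 14 TGF-beta genes. let-756 lost its call without L1 replicate 5 (1.30), and daf-5 without Egg replicate 1, 2 or 5 or L1 replicate 5 or 10 (-1.34 to -1.24), with groups that overlapped. No member of the 9 insulin receptor pathway genes was called by limma at adjusted p under 0.05, and 2 had an unadjusted p under 0.05 (median 0.63). Named for their class by the rule, 2 more genes fell, the DNA polymerase delta gene pold-1 (-1.79, both fractions lower) and the prolyl carboxypeptidase-like gene pcp-2 (-2.45, input higher by 4.00). pold-1 lost its call without Egg replicate 2 (-1.75). The second probe of pcp-2 differed by -0.22, and the pcp-2 call ended when both probes were averaged (-1.32, limma adjusted p = 0.379). Y69A2AR.14 (-2.42 ± 0.429, limma adjusted p = 0.00324) fell with a higher input at L1 (1.28), and its call ended with centred columns (-1.76, limma adjusted p = 0.243).

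**Figure D5:**
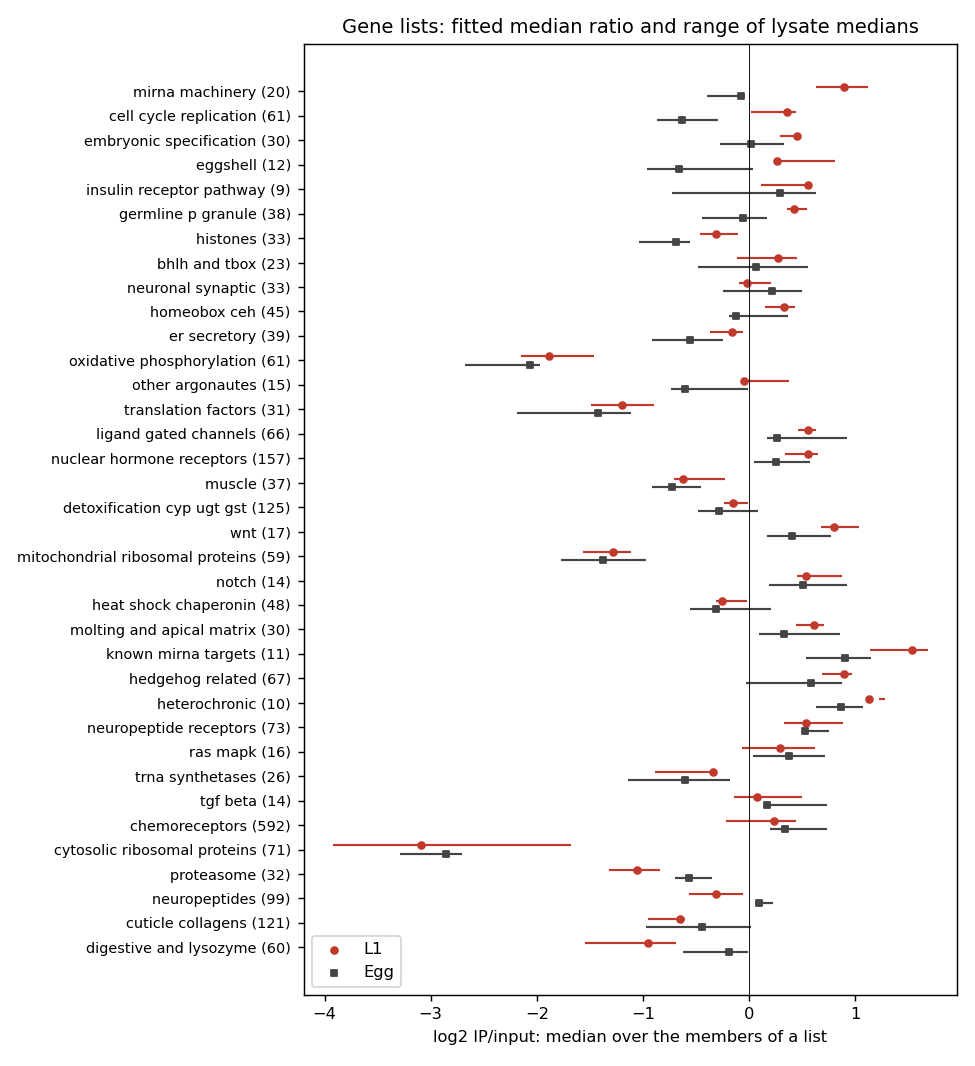
Fitted median log2 IP to input ratio of each gene list at L1 (red circles) and Egg (dark squares), with lines from the lowest to the highest lysate median and the number of tested genes in brackets. Lists are ordered by the difference. The microRNA machinery and cell cycle lists lie further right at L1, the digestive list further left, and the cytosolic ribosomal proteins far left at both stages.

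The larval stages that were not part of the comparison can be set beside it. The 187 genes called higher at L1 had a median ratio of 1.27 at L1 and -0.56 at Egg, and of 0.79 at L2, 0.86 at L3 and 0.90 at L4. The 127 called lower had a median of -0.73 at L1 and 1.47 at Egg, and of -0.77 at L2, -0.45 at L3 and -0.69 at L4. Over all features the median was -0.30 at L2, -0.08 at L3 and -0.16 at L4. The genes were chosen on the L1 and Egg lysates, and L2, L3 and L4 share the fit but not the samples. For several genes the later ratios did not stay near L1. sip-1 was at -0.98 at L4, dbd-3 at -0.19 at L2, and mlt-10, called lower at L1 (0.42), was at 2.65 at L2, 2.41 at L3 and 2.82 at L4.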

How the data were processed

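RNA from AIN-2::GFP immunoprecipitates and from the matched inputs was hybridised to 2-colour spotted oligonucleotide arrays with 23232 spots. Per the labels, each replicate was cultured and harvested independently. The deposited values are linear intensities of each channel, one column for IP and one for input, and some are below 0. The scanner, the scaling of these deposited intensity values and the genome build are not given in the sources used here. Array intensities carry no read depth, so the number of lysates limits the precision.

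Values at or below 0 were set to missing, log2 intensities were quantile normalised, and the IP to input difference of each lysate was fitted with limma 3.58.1 in R 4.3.3 on all 18 lysates, with stage and dye as terms and a variance trend on mean level. P-values were adjusted by Benjamini-Hochberg over 15622 features (11951 named genes and 3671 unnamed probes) with at least 2 lysates per stage. Inputs and IPs were fitted in the same way. A spot was above background over 3 times the root mean square of the values below 0 of its column. For the 737 genes with several probes, the probes with the most values were averaged. The script was tested on simulated ratios, with 100 features changed by 2 and 100 by 3 on the log2 scale among 15622. It recovered 28% and 43% of them, with 4 false calls (5.33% of the calls). A gene that was not called may therefore still differ between the stages. Simulated ratios varied independently between features and lysates, with no lysate that stood apart and no difference in scaling. The share of false calls may thus not hold for the real calls. Python 3.11.15, pandas 2.3.3 and matplotlib 3.10.9 drew the figures.

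The comparison, the 36 gene lists and the named genes rule were chosen with earlier results of these data known. The variance trend on mean level and the probe rule replaced a trend on the mean ratio and a plain mean over probes after calls had been seen, and both replaced choices are kept as alternatives. Genes were named if called, above background in all 16 samples and not overlapping, taking the 12 largest in each direction, the 4 largest of each class of IP and input calls and the 3 largest in each direction with opposite signs. Every tested member of the known target and heterochronic lists was also named, and up to 4 called members of each other list. Replicate numbers 2 and 5 occur at both stages. Same-numbered lysates deviated together with r of 0.177 and 0.0817, against -0.145 to 0.0752 for different numbers, and with independent replicates per the labels the numbers were not taken as pairs.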

Additional observations from a re-analysis of the deposited data

Results flagged for a closer look

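In 15 of 200 groups of 4 lysates tested (7.5%), 1 lysate lay far from the other 3 for a named gene, where chance gives about 1 in 20. Of the L1 lysates, replicate 2 stood apart for sip-1 (-0.62, the others 0.83 to 0.94), col-160 (-1.22, the others -2.34 to -2.16), pha-4 (0.38, the others 0.51 to 0.52), unc-29 (2.96, the others 1.78 to 1.94), iff-1 (1.11, the others 0.13 to 0.27) and ifg-1 (0.53, the others -0.17 to -0.07). L1 replicate 11 stood apart for F55D12.2 (1.17, the others 1.97 to 2.08). Egg replicate 4 stood apart for meg-1 (4.21, the others 1.86 to 2.04), lst-2 (1.58, the others 3.07 to 3.15), marb-1 (-0.25, the others 1.37 to 1.56) and ifg-1 (-2.78, the others -1.25 to -0.94). Egg replicate 5 stood apart for irg-5 (3.54, the others 1.68 to 1.81), lin-23 (1.38, the others 0.79 to 0.89) and gld-2 (-0.03, the others 0.61 to 0.67), and Egg replicate 1 for col-142 (0.78, the others -0.38 to -0.31).

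Among the genes with every L1 lysate on one side of 0 and every Egg lysate on the other, the 3 largest differences in each direction are given, 6 genes in all. Each difference was called by limma, which the naming rule required. L1 lay above 0 for R12E2.7 (3.94), dbd-3 (3.88) and cpg-8 (3.70), and below 0 for pgk-1 (-3.23), clec-209 (-2.71) and mrpl-41 (-2.66).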

How the results depend on the processing

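All 314 named calls kept their direction wherever an alternative gave a value, and how many kept their call depended on the scaling and on the spread. They numbered 293 with values as deposited, 42 with centred columns, 309 with loess, 303 with an offset of 0.1 and 257 with the 8 lysates alone. Features called in the ratio were 544 higher as deposited, 43 higher and 19 lower with centred columns, 321 lower with loess, and 586 higher and 490 lower with the offset. Without a variance trend 111 were higher and 85 lower, and with the trend on the mean ratio, an alternative added after seeing the data, 117 and 86. With the title spelling as a block 152 were higher, within "tot" 1 and 0, and within "Tot" 41 and 18. For the input the calls were 514 and 672 within "tot", 709 and 382 within "Tot", and 814 and 1137 among features above background in all 16 samples. For the IP they were 102 and 68 within "tot", 74 and 44 within "Tot", 322 higher above background, and 266 lower with centred columns, 668 with the offset and 676 with the 8 lysates alone. With centred columns the IP was below the input for 915 features at L1 and above it for 1021 at Egg. Higher calls made up 61.1% of ratio calls as reported, 71.7% as deposited, 69.4% centred, 49% with loess and 54.5% with the offset.

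With the replicate number as a block, the ratio calls were 115 higher and 45 lower and the IP calls 237 and 180, and 97 of the 314 named genes stayed called. Shared numbers are only 2 and 5, and the labels call the replicates independent.

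Leaving out 1 lysate at a time gave 105 to 285 higher and 73 to 158 lower ratio calls. The IP was above the input at L1 for 1515 to 2179 features and below it for 1045 to 1693, and at Egg above for 1092 to 1606 and below for 1073 to 1832. Input calls were 1271 to 1930 higher and 1317 to 2006 lower, and IP calls 349 to 591 higher and 241 to 383 lower.

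No called gene changed sign. Uncalled genes near 0 did. As deposited, blmp-1 was at 0.31, lin-42 at -0.12 and nhr-25 at 0.19. With centred columns lin-23 was at 0.21, vav-1 0.14, blmp-1 0.64, lin-29 0.13, lin-66 0.13, nhr-25 0.49 and sea-2 0.13. With loess let-60 was at -0.0035, with the offset cog-1 at 0.19, and over all probes blmp-1 at 1.75 and mab-10 at -1.24. With the 8 lysates alone cog-1 was at 0.0486 and lin-66 at 0.18, and with no dye term lin-66 at 0.16. With the spelling block let-60 was at -0.10, lin-42 -0.0231, nhr-25 0.31 and sea-2 0.11. Within "tot" let-60 was at -0.0341, blmp-1 0.73, lin-42 -0.0417 and nhr-25 0.63, and within "Tot" let-60 -0.0277, lin-42 -0.29, nhr-25 0.33 and sea-2 0.54. With the replicate block let-60 was at -0.0178, vav-1 0.42, blmp-1 0.42, lin-42 -0.41, nhr-25 0.13 and sea-2 0.36. Leaving out 1 lysate at a time, the differences spanned -0.31 to 0.25 for nhr-25, -0.0936 to 0.27 for let-60, -0.26 to 0.12 for blmp-1, -1.29 to 0.35 for cog-1, -0.40 to 0.25 for lin-66, -0.92 to 0.36 for vav-1, -0.0629 to 0.30 for lin-42 and -0.55 to 0.12 for sea-2. The cause of these changes was not tested.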

Other observations

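The nspc and Mediator genes were picked after their values were seen, and over all features tested 2.52% were called in either direction. All 9 tested nspc genes, for small secreted proteins of a nematode-specific family, had ratio differences below 0, with a median of -2.24. Of these, 6 were called lower at L1 (-4.13 to -1.90), and the input was called higher at L1 for 7. Only 1 of the 9 was above background in all 16 samples, the members are near-identical, and cross-hybridisation between them was not tested. Of 14 tested Mediator subunit genes (mdt), 3 were called higher at L1 and 0 lower by limma, which were mdt-30 (3.23), mdt-6 (2.21) and mdt-22 (1.59). Of the 14, 8 were above background in all 16 samples, and the called ones in 12 to 16 samples. The median of the Mediator genes was 0.78, and none of their inputs or IPs was called higher. Their median difference was -1.15 in the input and -0.27 in the IP.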
